A study of Mus musculus with 4 samples.

Results

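TNF superfamily ligands and receptors are the signalling pairs through which lymphocytes kill, arm and sustain one another. The 10 genes described here were chosen by name, as 5 ligands (Tnf, Lta, Ltb, Fasl and Tnfsf14) and 5 receptors (Fas, Tnfrsf1b, Tnfrsf9, Tnfrsf18 and Tnfrsf4), and all 10 were found by symbol among the 35275 genes of the deposited tables. RNA was sequenced in bulk from splenic natural killer (NK) cells, a class of innate lymphocyte with cytotoxic function, enriched with a kit and then flow-sorted as negative for CD3 and positive for NK1.1. Each of the 4 groups had 1 library. WT control and WT injected came from wild type C57BL/6 mice without tumour cells and 20 days after B16-F10 cells, a mouse melanoma line, had been given into a vein. Irf4-/- control and Irf4-/- injected came from mice labelled as lacking Irf4, a lymphocyte transcription factor, kept without tumour cells or injected in the same way. The labels give no age, sex, number of animals or deleted part of Irf4, and the label is that of the whole mouse, not of NK cells alone.

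The ligands are mostly made as trimers on the cell surface, and some are then cut loose as soluble cytokines. Their receptors fall into those with a death domain, such as Fas, which couple to caspases, and those without one, such as Tnfrsf1b, Tnfrsf9, Tnfrsf18 and Tnfrsf4, which bind TRAF adaptors and feed NF-kB survival signals. NK cells are known for killing targets through Fas ligand and for secreting TNF, and several of the TRAF-binding receptors appear on them after activation.

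Total counts lay between 15878159 and 21104881 per library, and with no replicate in any group a difference between 2 libraries describes those libraries, not the conditions. Irf4 itself had 93 and 57 counts in the control and injected WT libraries, and 188 and 236 in the libraries labelled Irf4-/-, so the transcript was more abundant under the knockout label. Counts over the whole gene do not check a deletion whose place is not given, so a genotype direction given here follows the label only. The 12 NK markers summed to between 15640 and 17400 CPM (counts scaled to a common library size, with TMM normalisation), led by Gzma at a mean of 3883 CPM and Il2rb at 2901 CPM and including Ncr1 at 1256 CPM, and none of them was at 0 in any library. Markers of other cells were mostly low but present, with none of the next 3 lists holding a gene at 0. The 10 T cell markers summed to 117 to 143 CPM. Most of each sum was Cd28, at 71.9 to 96.5 CPM, and Cd3e stood at 5.18 to 9.37 CPM in these cells sorted as CD3 negative. The 10 B cell markers summed to 73.5 and 31.3 CPM in the control and injected libraries of WT, and 77.0 and 54.2 in those of Irf4-/-. The 12 monocyte and macrophage markers summed to 39.3, 90.4, 60.0 and 73.1 CPM in the same order. The 8 dendritic cell markers summed to 1205 to 1926 CPM and include Itgax and Irf8, which NK cells also express. In bulk RNA, fewer cells that make a transcript and less transcript per cell cannot be told apart.

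Levels spanned a wide range. Compared per transcript length, as the deposited FPKM (counts over gene length and library size), Ltb was the most abundant member in each library, at 95.1 and 99.9 in the control and injected WT libraries and 99.1 and 136 in the Irf4-/- ones. Fasl followed at 63.1 to 84.1 FPKM and Tnfrsf1b at 59.6 to 66.8, ranges that overlap. Tnfsf14 at 38.7 to 53.8 and Tnfrsf9 at 32.9 to 46.0 overlapped as well. Tnfrsf18 stood alone in the middle at 9.43 to 13.8 FPKM. The 4 lowest members overlapped one another, with Tnf at 2.49 to 6.71, Tnfrsf4 at 3.17 to 6.35, Fas at 2.46 to 3.52 and Lta at 1.54 to 4.62 FPKM. Lta was the lowest of the 10 in both WT libraries and Fas the lowest in both libraries labelled Irf4-/-. Among all genes with a count in WT control, Ltb stood at the 96.4th percentile of FPKM and Lta at the 45th.

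**Figure D1:**
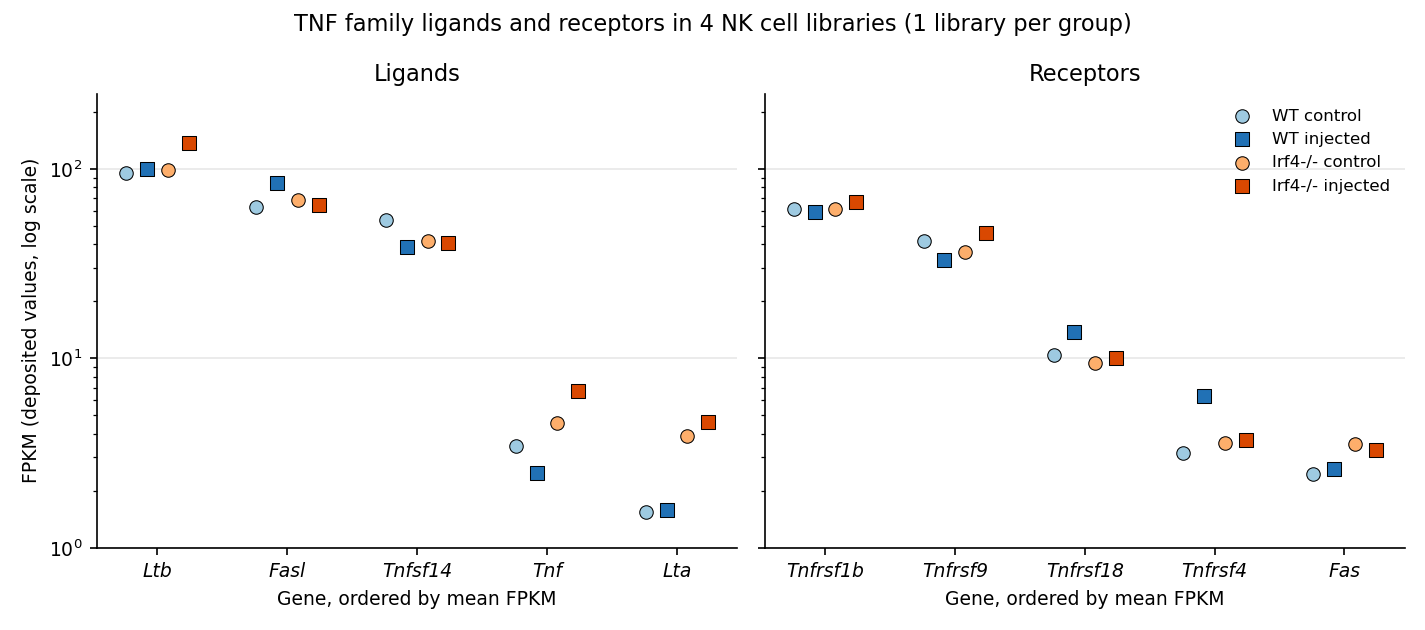
Deposited FPKM (log axis) of the 5 ligands (left) and 5 receptors (right), ordered by mean FPKM. Each point is 1 library, coloured by group, with squares for injected mice. Ltb is highest at 95.1 to 136 FPKM, and Tnf and Lta show the points of the Irf4-/- libraries above those of WT.

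Lta, which encodes lymphotoxin alpha, a secreted ligand of both TNF receptors that also joins Ltb in a surface trimer, was the 1 member of 10 that changed with the genotype label. It had 45 counts without and 41 with injection in WT mice, and 85 and 119 in Irf4-/- mice, or 2.14, 2.21, 5.31 and 6.39 CPM. Both Irf4-/- libraries lay above both WT libraries, and the 2 WT values were nearly the same. In an additive model of the 2 factors, fitted to all 4 libraries, Lta rose with the Irf4-/- label by a log2 change of 1.43 (SE 0.295, edgeR quasi-likelihood test, adjusted p 0.0417 over 11998 genes). In that test 1.48% of all genes passed in either direction and 1.22% rose. At an unadjusted p under 0.05 there were 3 members (Tnf, Lta and Ltb) and 10.4% of genes. The ratio was 2.81-fold (log2 1.49, exact 95% counting interval 1.01 to 2.08) in injected mice and 2.41-fold (log2 1.27, 0.77 to 1.86) in control mice. Lta occupies chr17:35203165-35205351 on the minus strand (GRCm38, the build of every position given here). These counting intervals treat reads as independent draws and do not include variation between animals. The call is near its threshold: the adjusted p was 0.214 by DESeq2 and 0.0473 by limma-voom. Over all alternative settings the log2 change stayed between 1.30 and 1.56. Settings that left out 1 library had genotype as the only term, with a genotype down to 1 library. They were not adjusted for injection, and only their log2 change is used. Among the marker lists of other cells, genes rose with the same label in type 1 innate lymphoid cells (3 of 6 tested), regulatory T cells (2 of 3 tested) and type 2 and 3 innate lymphoid cells (1 of 3 tested). Their part in the Lta value, and in that of Tnf, was not tested. In the 7 erythroid markers none passed the edgeR test for genotype (0 of 5 tested, with 4 at an unadjusted p under 0.05 and 0 by DESeq2 or limma-voom).

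Tnf, the inflammatory and cytotoxic cytokine that lies 1.16 kb from Lta on chromosome 17, showed the same order of genotypes (chr17:35199381-35202007, minus strand). It had 119 and 76 counts in the control and injected libraries of WT, and 118 and 205 in those of Irf4-/-, which is 5.66, 4.09, 7.37 and 11.0 CPM. The Irf4-/- injected library was the highest and WT injected the lowest, and the 2 genotypes did not overlap. The additive estimate with the Irf4-/- label was 0.91 (SE 0.277, adjusted p 0.210, edgeR quasi-likelihood test), which did not pass, although the unadjusted p was 0.00772. Among 13 alternative settings, using no filter on low genes took Tnf past the threshold (adjusted p 0.00632, edgeR quasi-likelihood test). Over all genes this setting also gave more calls than the main one. Settings that left out 1 library had genotype as the only term, with a genotype down to 1 library, so their calls are not used. The rest, with DESeq2 and limma-voom among them, did not call Tnf. Its estimate lay between 0.61 and 1.18 over the alternatives. In injected mice Tnf was 2.65-fold higher in Irf4-/- than in WT, with a log2 ratio of 1.40 (1.04 to 1.83). It was the only member past a rule of size that asks for a mean of 5 CPM, a 2-fold ratio and a counting interval that excludes 0, a rule that 1.8% of 9685 genes met. In control mice the log2 ratio was 0.37, and the lower end of its interval lay at 0.00 and the upper at 0.76. Lta, with 1.49 in the injected pair, is below the 5 CPM minimum there. The summed erythroid markers followed the same order of libraries as Tnf, at 38.2 and 19.1 CPM in control and injected WT and 45.0 and 108.9 CPM in control and injected Irf4-/-, with none at 0. In the injected genotype pair all 3 erythroid genes that averaged 5 CPM passed the size rule, namely the globin genes Hba-a1 (5.83-fold), Hbb-bs (6.35-fold) and Hbb-bt (4.59-fold). Their part in the Tnf value was not tested.

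Ltb, the membrane partner of Lta in the lymphotoxin trimer, lies 3.06 kb on the other side of Tnf (chr17:35194439-35196320, plus strand) but differed less. It had 2844 counts without and 2638 with injection in WT mice, and 2229 and 3603 in Irf4-/- mice, or 135, 142, 139 and 193 CPM. Here 3 libraries were close together and the Irf4-/- injected library stood above them. The log2 ratio of genotypes was 0.45 (0.37 to 0.52) in injected mice and 0.04 (-0.04 to 0.12) in control mice. The additive estimate of 0.25 (SE 0.112, adjusted p 0.470, edgeR quasi-likelihood test) did not pass. Per length, Ltb exceeded Lta 61.7-fold and 62.8-fold in WT control and WT injected, against 25.6-fold and 29.6-fold in Irf4-/- control and Irf4-/- injected.

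The bases before the start sites of Tnf and Lta are shown because these neighbours, both on the minus strand, were the members in which the Irf4-/- libraries stood farthest above WT. The sequences are RefSeq's in GRCm38.p6, the assembly that mm10 denotes, 250 bases 5′ to 3′ on the gene's strand up to the base before the start, chr17:35202008-35202257 for Tnf and chr17:35205352-35205601 for Lta. Capitals mark matches on either strand to any of 5 motifs, namely the NF-kB consensus, the IRF motif (GAAA, any 2 bases, GAAA), the ETS-IRF composite (GGAA, any 2 bases, GAAA) through which IRF4 can bind with an ETS factor, the AP-1 motif TGANTCA and the TATA box TATAAA.
Tnf: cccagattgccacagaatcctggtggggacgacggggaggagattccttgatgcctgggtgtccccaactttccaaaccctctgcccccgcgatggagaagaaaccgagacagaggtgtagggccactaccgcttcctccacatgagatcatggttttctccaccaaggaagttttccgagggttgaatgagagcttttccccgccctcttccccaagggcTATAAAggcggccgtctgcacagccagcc
Lta: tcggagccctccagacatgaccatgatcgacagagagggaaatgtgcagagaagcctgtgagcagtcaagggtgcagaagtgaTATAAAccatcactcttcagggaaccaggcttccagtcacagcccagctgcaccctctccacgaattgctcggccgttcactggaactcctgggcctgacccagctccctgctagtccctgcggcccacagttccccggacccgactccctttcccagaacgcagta
The Tnf window held a TATA box from -29 to -24, and the match in the Lta window lay from -167 to -162. Neither window matched the other 4 motifs as spelled here, which says only that those letters are not in these bases. Of 32851 windows of this length from all genes, 12.4% held the TATA box, 3.9% the NF-kB consensus, 2.98% the IRF motif, 2.3% the ETS-IRF composite and 6.75% the AP-1 motif. Among the windows of the other members, that of Ltb matched the NF-kB consensus from -87 to -78 and the second start of Tnfrsf9 did so from -43 to -33 in 2 overlapping matches, shown here with their neighbouring bases, the match in capitals and, for Tnfrsf9, the second match alone.
Ltb: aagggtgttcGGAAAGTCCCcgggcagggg
Tnfrsf9: agagcagctgGGGATTTCCCaggaggccct
Tnfrsf1b matched the IRF motif from -10 to -1, on the opposite strand. AP-1 matches stood at -160 to -154 for Tnfsf14, -211 to -205 for Fas and -15 to -9 for the second start of Tnfrsf9. No match was found for the first start of Tnfrsf9, or for Fasl, Tnfrsf18 or Tnfrsf4. The starts are RefSeq's and can differ from the gene positions given here. The windows of Ltb, Tnfrsf18 and the second start of Tnfrsf9 overlapped an annotated exon of the gene itself. Those of Tnfrsf18 and Tnfrsf4 overlapped an exon of another gene.

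Fasl, the ligand with which NK cells trigger death through Fas, was lower in Irf4-/- than in WT in injected mice (chr1:161780689-161788495, minus strand). It had 2577 and 3035 counts in the control and injected libraries of WT, and 2105 and 2313 in those of Irf4-/-, or 123, 163, 131 and 124 CPM. WT injected was the highest library and the other 3 were similar. The log2 ratio of Irf4-/- to WT was -0.40 (-0.47 to -0.32) in injected mice and 0.10 (0.02 to 0.18) in control mice, and the injection ratio in WT was 0.41 (0.34 to 0.49). The first and last of these share the WT injected library and are not separate observations. Its additive genotype estimate was -0.14 (SE 0.124, adjusted p 0.813, edgeR quasi-likelihood test).

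Tnfsf14 encodes LIGHT, a ligand of the herpesvirus entry mediator and of the lymphotoxin beta receptor (chr17:57189492-57194177, minus strand). It had 2111 counts without and 1342 with injection in WT mice, and 1230 and 1401 in Irf4-/- mice, or 100.4, 72.2, 76.8 and 75.2 CPM. WT control was the highest library and the others lay within 5 CPM of one another. The log2 ratio of Irf4-/- to WT was accordingly -0.39 (-0.49 to -0.28) in control mice and 0.06 (-0.05 to 0.17) in injected mice. Its additive injection estimate was -0.26 (SE 0.114, adjusted p 0.347, edgeR quasi-likelihood test), and both injected libraries were below both controls.

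**Figure D2:**
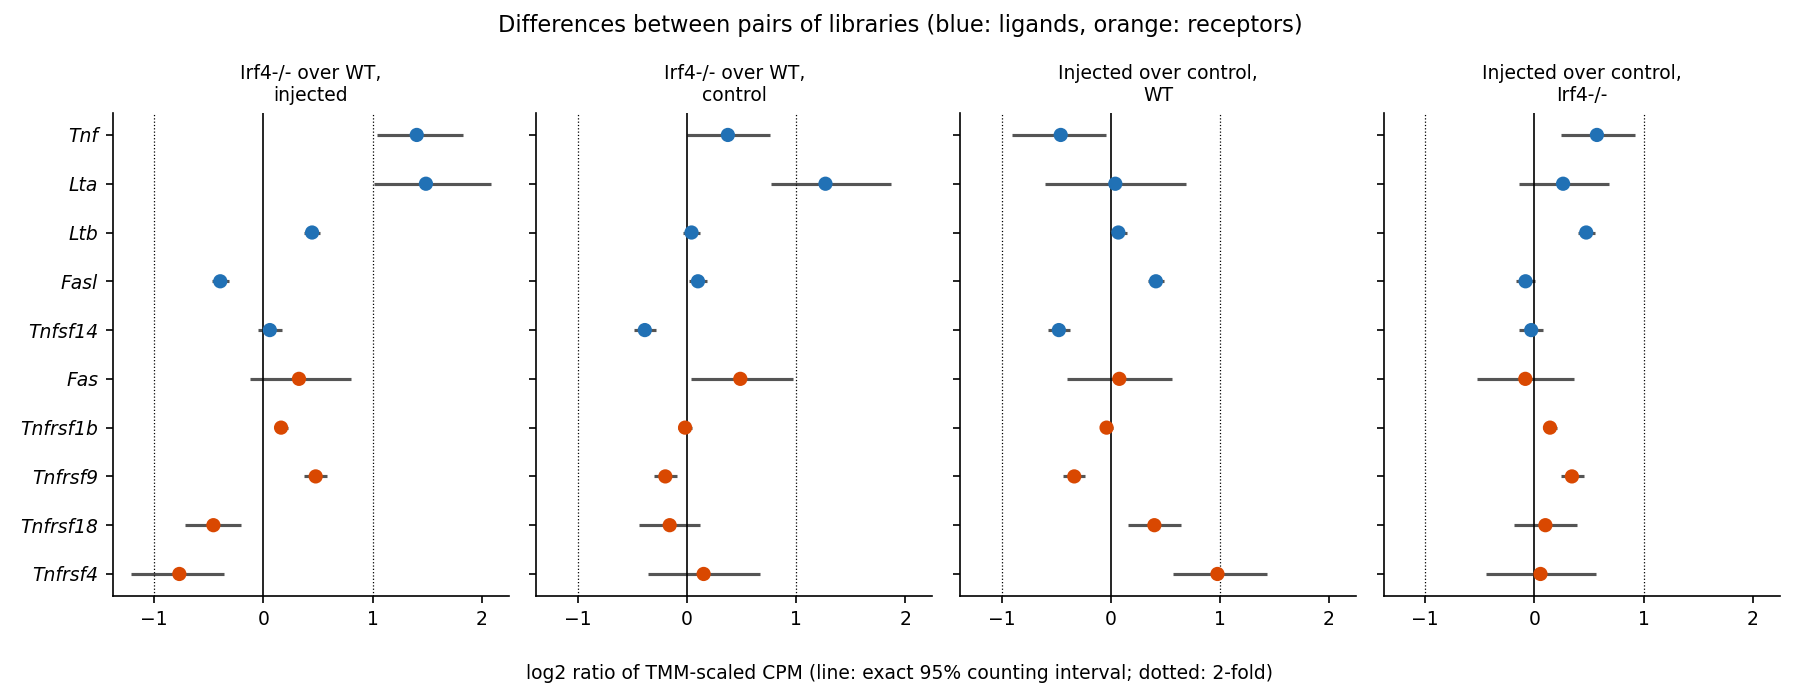
Log2 ratios of TMM-scaled CPM between the libraries of each of 4 pairs, with exact 95% counting intervals as lines, ligands in blue and receptors in orange, and dotted lines at 2-fold. Tnf and Lta lie to the right in the injected genotype pair at 1.40 and 1.49, and Tnfrsf4 lies to the right in the WT injection pair at 0.98.

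Among the receptors Fas, the death receptor bound by Fas ligand, was scarce (chr19:34290666-34327772, plus strand). It had 77 and 72 counts in the control and injected libraries of WT, and 83 and 91 in those of Irf4-/-, or 3.66, 3.88, 5.18 and 4.89 CPM. Both Irf4-/- libraries were above both WT libraries, but the additive estimate of 0.42 (SE 0.274, adjusted p 0.698, edgeR quasi-likelihood test) did not pass. The log2 ratio was 0.33 (-0.13 to 0.80) in injected mice and 0.49 (0.035 to 0.97) in control mice, so the counting interval included 0 in the first pair and not in the second. Tnfrsf1b, which encodes TNF receptor 2, which has no death domain and is found mainly on immune cells (chr4:145213463-145246870, minus strand), was the steadiest member. It had 4925, 4240, 3706 and 4756 counts in WT control, WT injected, Irf4-/- control and Irf4-/- injected, or 234, 228, 231 and 255 CPM, a ratio of 1.12 between the highest and the lowest. The additive genotype estimate was 0.08 (SE 0.103, adjusted p 0.889, edgeR quasi-likelihood test).

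Tnfrsf9, which encodes 4-1BB, a costimulatory receptor induced on activated NK and T cells (chr4:150914562-150946102, plus strand), had 1850 counts without and 1297 with injection in WT mice, and 1228 and 1813 in Irf4-/- mice. These are 88.0, 69.8, 76.7 and 97.4 CPM, so that the lowest and the highest library were the 2 from injected mice. The log2 ratio with injection was -0.33 (-0.44 to -0.23) in WT and 0.34 (0.24 to 0.45) in Irf4-/-, and the ratio of genotypes was 0.48 (0.38 to 0.58) in injected and -0.20 (-0.30 to -0.09) in control mice. An additive model averages such values, and its genotype estimate was 0.15 (SE 0.138, adjusted p 0.826, edgeR quasi-likelihood test).

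Tnfrsf18 and Tnfrsf4 encode GITR and OX40, costimulatory receptors best known on regulatory and activated T cells, and their genes lie 9.55 kb apart on the plus strand, at chr4:156013843-156016612 for Tnfrsf4 and chr4:156026164-156028895 for Tnfrsf18. Tnfrsf18 had 261 and 305 counts in the control and injected libraries of WT, and 178 and 222 in those of Irf4-/-, or 12.4, 16.4, 11.1 and 11.9 CPM. Tnfrsf4 had 73, 129, 62 and 75 counts in the same order, or 3.47, 6.95, 3.87 and 4.03 CPM. In both genes WT injected was the highest library, and in Tnfrsf4 the other 3 were close together. With injection in WT the log2 ratio was 0.98 (0.57 to 1.43) for Tnfrsf4 and 0.40 (0.16 to 0.65) for Tnfrsf18, while in Irf4-/- it was 0.06 (-0.45 to 0.57) and 0.10 (-0.19 to 0.39). Neither passed the additive test for injection, where the estimates were 0.55 (SE 0.308, adjusted p 0.449) and 0.26 (SE 0.182, adjusted p 0.554) by edgeR's quasi-likelihood test. The antisense gene Gm16008 shares 414 bp of exon with Tnfrsf18 and had 26, 39, 15 and 21 counts. Whether counting used strand is not given, so reads of the pair cannot be assigned with certainty. Foxp3, the defining factor of regulatory T cells, had 6 counts without and 8 with injection in WT mice, and 44 and 38 in Irf4-/- mice. It rose with the Irf4-/- label (2.73, SE 0.494, adjusted p 0.0213, edgeR quasi-likelihood test). The part of regulatory T cells in the Tnfrsf18 and Tnfrsf4 values was not tested. Ctla4, another gene of those cells, had 1, 9, 4 and 3 counts, and all 5 regulatory T cell markers summed to 50.3, 43.6, 66.2 and 74.8 CPM with none at 0. Most of each sum was Ikzf2, at 45.8, 33.4, 45.1 and 42.3 CPM, whereas Il2ra, which rose with the label, stood at 3.85, 8.67, 17.9 and 29.8 CPM. The monocyte and macrophage marker sum was highest in the WT injected library too, at 90.4 CPM, but its genes went both ways. Of the 10 tested for injection by edgeR, 2 rose (Vcam1 and C1qc) and 1 fell (Lyz2). Lyz2 was lowest in WT injected, with 12.2, 4.79, 18.6 and 8.22 CPM in the same order. The part of these transcripts in the receptor values was not tested.

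Counted over the 10 members, 3 genes (Tnf, Lta and Fas) had both Irf4-/- libraries above both WT libraries and 1 (Tnfrsf18) had both below. Among the 11870 genes that averaged 1 CPM or more these patterns held for 15.6% and 17.7%. For injection 2 members (Ltb and Tnfrsf4) had both injected libraries above both controls and 1 (Tnfsf14) had both below, where 21.1% and 22.2% of genes did. The Irf4-/- injected library was the highest of the 4 in 5 members (Tnf, Lta, Ltb, Tnfrsf1b and Tnfrsf9), which was so in 21.6% of genes. The same library had the highest erythroid marker sum, at 108.9 CPM against 19.1 to 45.0 CPM in the others, and Hba-a1, Hbb-bs and Hbb-bt were 2.39-fold, 2.52-fold and 2.44-fold higher with injection in Irf4-/-. The part of these transcripts in the values of the 5 members was not tested. WT injected was the highest in 3 (Fasl, Tnfrsf18 and Tnfrsf4) against 33.2% of genes, and WT control in 1 (Tnfsf14) against 25.6%. In 2 members (Tnf and Tnfrsf9) the counting interval of the injection ratio lay below 0 in WT and above 0 in Irf4-/-, as it did in 3.37% of genes.

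Pair by pair, many of the members that averaged 5 CPM had a counting interval clear of 0, as did many genes. In injected mice 4 of 8 such members (Tnf, Ltb, Tnfrsf1b and Tnfrsf9) were higher in Irf4-/- and 3 (Fasl, Tnfrsf18 and Tnfrsf4) lower, where 27.8% and 27.1% of genes were. In control mice 2 of 7 (Tnf and Fasl) were higher and 2 (Tnfsf14 and Tnfrsf9) lower, where 15.1% and 22.4% were. Tnf was on the limit there, with the lower end of its interval at 0.00. With injection in WT 3 of 7 (Fasl, Tnfrsf18 and Tnfrsf4) were higher and 2 (Tnfsf14 and Tnfrsf9) lower, against 28.7% and 32.6%. With injection in Irf4-/- 4 of 9 (Tnf, Ltb, Tnfrsf1b and Tnfrsf9) were higher and 0 lower, against 22.1% and 18.9%. Each genotype pair shares 1 library with each injection pair. The injected genotype pair and the Irf4-/- injection pair share the Irf4-/- injected library, so the 4 members higher in both are not separate observations, and the same holds for the other combinations. No test was made over the members as a group. Their median additive estimate was 0.11 for genotype and 0.13 for injection, beside 0.00 for both over all 11998 genes tested.

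For injection none of the 10 members passed the additive edgeR test (0 of 10), in which 0.725% of genes passed. Ltb and Tnfsf14, 2 of the 10, had an unadjusted p under 0.05, as did 14.2% of genes, and 0 passed by DESeq2 or limma-voom. The size rule was met by 0 members in the control genotype pair, the WT injection pair and the Irf4-/- injection pair, where 0.797%, 1.89% and 0.351% of genes met it. Tnfrsf4 came nearest in the WT pair, at 1.97-fold.

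**Figure D3:**
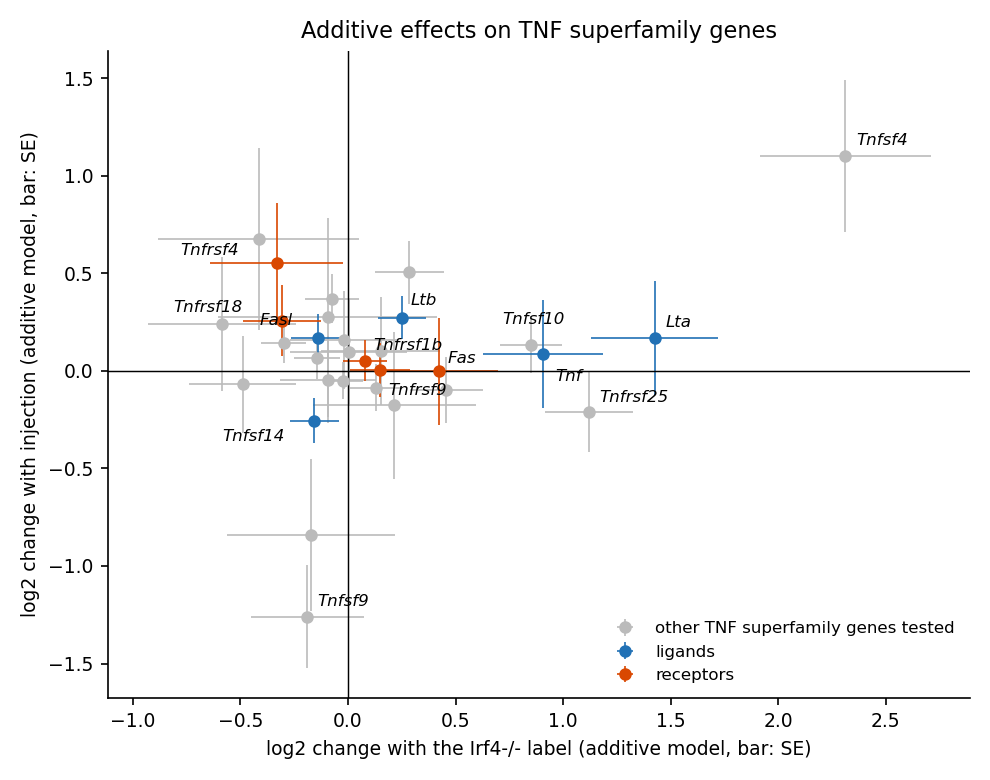
Additive log2 change with the Irf4-/- label (x axis) and with injection (y axis) for the members (blue, ligands; orange, receptors) and the other TNF superfamily genes tested (grey), with bars of 1 SE. Lta at 1.43 and the non-members Tnfsf4, Tnfrsf25 and Tnfsf10 are the points to the right that passed the genotype test.

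Of the rest of the superfamily, 13 other ligands and 23 other receptors were examined, and 7 and 14 of them were abundant enough to test. With the genotype label 2 of the 7 ligands rose and none fell, and 1 of the 14 receptors rose and none fell, where 1.22% of all genes rose. At an unadjusted p under 0.05 for genotype there were 3 of these ligands and 2 of these receptors, against 10.4% of genes. Tnfsf4, which encodes OX40 ligand, the partner of Tnfrsf4, had 9 and 21 counts in the control and injected libraries of WT, and 41 and 93 in those of Irf4-/-, and rose by a log2 change of 2.31 (SE 0.396, adjusted p 0.0152, edgeR quasi-likelihood test). Tnfsf10, the death ligand TRAIL, rose by 0.85 (SE 0.145, adjusted p 0.0152), from 37.1 and 32.4 CPM in WT control and WT injected to 53.3 and 72.6 CPM in Irf4-/- control and Irf4-/- injected. Tnfrsf25, the death domain receptor DR3, rose by 1.12 (SE 0.205, adjusted p 0.0227), with 13.1 and 8.29 CPM in the WT libraries and 21.4 and 24.2 CPM in the Irf4-/- libraries. Beside these, markers of type 1 innate lymphoid cells, a list that holds Tnfsf10 itself, summed to 127 CPM without and 263 with injection in WT mice, and 178 and 320 in Irf4-/- mice. In that list 3 of 6 genes rose with the label, and Cxcr6 stood at 8.18, 11.1, 29.6 and 53.3 CPM. The largest share of the sum in each library came from Il7r, at 61.9, 199.7, 63.4 and 144 CPM, which did not pass the genotype test (-0.22, adjusted p 0.623, edgeR quasi-likelihood test). Their part in the TNF family values was not tested. For injection 0 of the 7 ligands and 0 of the 14 receptors passed by edgeR, DESeq2 or limma-voom. At an unadjusted p under 0.05 there were 3 and 1, against 14.2% of genes. The nearest was Tnfsf9, the 4-1BB ligand, with 158 and 57 counts in the control and injected libraries of WT, and 103 and 51 in those of Irf4-/- and an estimate of -1.26 (SE 0.265, adjusted p 0.0632, edgeR quasi-likelihood test).

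In these libraries ligands and the receptors that bind them did not all share a pattern across the libraries. Tnf was highest in Irf4-/- injected while its receptor genes Tnfrsf1b and Tnfrsf1a (the latter at 40.3, 38.4, 39.4 and 38.2 FPKM) were nearly level. Ltbr, the receptor of the lymphotoxin trimer and of LIGHT, was low, with 17, 33, 23 and 17 counts, whereas Tnfrsf14, the herpesvirus entry mediator, stood at 35.2 to 41.1 FPKM. Tnfsf9 was lower in both injected libraries while its receptor Tnfrsf9 was lower with injection only in WT. Tnfsf4 was highest in Irf4-/- injected and its receptor Tnfrsf4 in WT injected. Tnfsf18, the GITR ligand, had 0, 6, 2 and 3 counts, near the limit of detection of 3 counts, which is 0.143 to 0.187 CPM depending on the library. Cd27, a costimulatory receptor that marks less mature NK cells, was the most abundant other receptor at 88.4 to 108 FPKM. Tnfsf12 at 8.08 to 12.2 FPKM and Tnfsf8 at 3.45 to 5.93 FPKM were, with Tnfsf10, the most abundant other ligands.

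**Figure D4:**
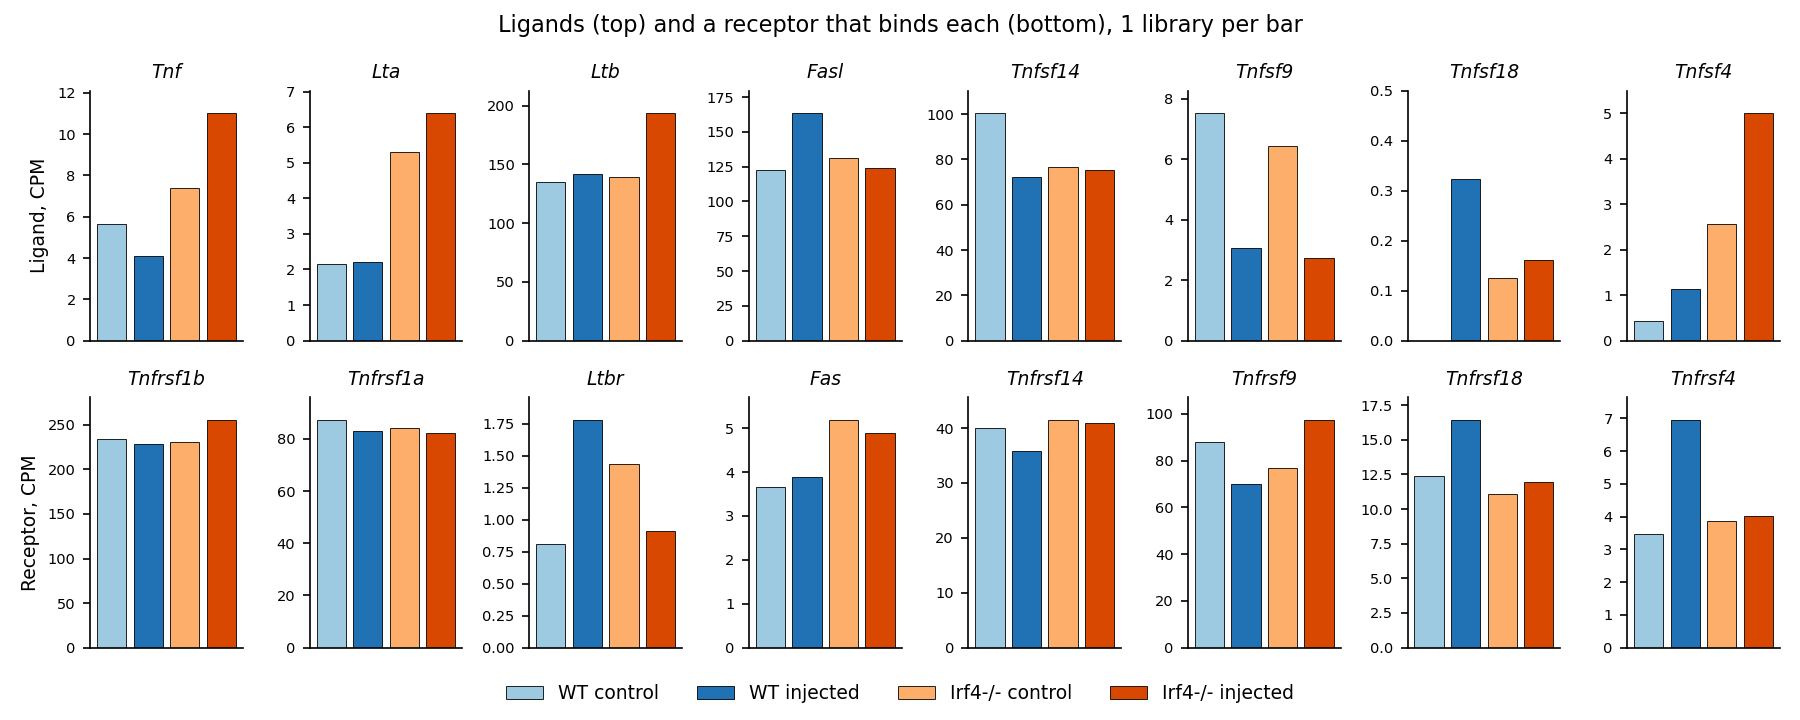
TMM-scaled CPM of 8 ligands (top) and, below each, a receptor that binds it, with 1 bar per library and an own linear axis from 0 in each panel. The ligand bars of Tnf, Lta and Tnfsf4 are tallest in Irf4-/- injected, while the receptor bars of Tnfrsf1b and Tnfrsf1a are nearly level and that of Tnfrsf4 is tallest in WT injected.

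The median log2 change of the 9 lists of other pathway genes lay between -0.08 (other receptors) and 0.28 (other ligands) for genotype and between -0.08 (shedding) and 0.14 (other ligands) for injection, beside 0.00 over all genes tested. Downstream of the receptors few genes passed the edgeR test. Of 22 adaptors, ubiquitin ligases and kinases none passed the edgeR test for genotype (0, with 2 at an unadjusted p under 0.05 and 0 by DESeq2 or limma-voom). With injection 1 rose, Tab1, a subunit of the TAK1 kinase complex, by 0.80 (SE 0.138, adjusted p 0.0313, edgeR quasi-likelihood test), where 0.725% of all genes passed. There were 6 of the 22 at an unadjusted p under 0.05 for injection, against 14.2% of genes, with 2 calls by DESeq2 and 1 by limma-voom. Tnfaip3, the A20 enzyme that restrains NF-kB, had 2550 counts without and 5194 with injection in WT mice, and 1895 and 2157 in Irf4-/- mice, or 121, 280, 118 and 116 CPM. It thus stood out in WT injected alone, with a log2 ratio of 1.20 (1.14 to 1.27) for injection in WT and of -0.03 (-0.12 to 0.06) in Irf4-/-. Death receptor signalling genes (13 tested) and NF-kB factors and inhibitors (14 tested) had 0 calls for either effect by edgeR, DESeq2 or limma-voom. At an unadjusted p under 0.05 there were 0 and 1 of them for genotype and 1 and 2 for injection. Casp8, the caspase that Fas recruits, stayed between 144 and 150 CPM and its inhibitor Cflar between 171 and 203 CPM.

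Of 18 NF-kB responsive genes 1 rose and 1 fell with the genotype label by edgeR, where 1.48% of all genes passed. There were 6 of the 18 at an unadjusted p under 0.05, against 10.4% of genes, with 1 call by DESeq2 and 2 by limma-voom. Icam1, an adhesion molecule, rose by 0.58 (SE 0.110, adjusted p 0.0267) and Bcl2l1, which encodes the survival protein BCL-XL, fell by 0.53 (SE 0.107, adjusted p 0.0408) by the edgeR quasi-likelihood test. For injection 0 of the 18 passed by edgeR, with 3 at an unadjusted p under 0.05 (14.2% of all genes), 1 call by DESeq2 and 0 by limma-voom. Among 5 genes for shedding and cleavage of TNF family proteins, Sppl2a, a protease of the membrane stubs left after shedding, rose by 0.53 (SE 0.104, adjusted p 0.0333) with the label, while Adam17, the TNF converting enzyme, lay between 118.5 and 146 CPM. For injection 0 of these 5 passed by the 3 tools, and 0 had an unadjusted p under 0.05.

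Tnf transcripts carry AU-rich elements read by RNA-binding proteins, and of 13 such regulators 0 passed for either effect by edgeR, DESeq2 or limma-voom (1 at an unadjusted p under 0.05 for each effect). Zfp36l2, a decay factor of that family, had 1624 and 2754 CPM in the control and injected libraries of WT, and 1674 and 978 in those of Irf4-/-. WT injected was its highest library and Irf4-/- injected its lowest, whereas Tnf was lowest and highest there. The part of Zfp36l2 in the Tnf values was not tested. Its log2 ratio of Irf4-/- to WT was -1.49 (-1.52 to -1.47) in injected mice and 0.04 (0.02 to 0.07) in control mice, and its additive genotype estimate of -0.72 (SE 0.280, adjusted p 0.390, edgeR quasi-likelihood test) did not pass. Zfp36, tristetraprolin, lay between 127 and 159.5 CPM. Of 15 immediate early genes, which respond within minutes to stimulation, Nr4a1 fell by 0.77 (SE 0.123, adjusted p 0.0104, edgeR quasi-likelihood test) with the label and none rose. There were 4 of the 15 at an unadjusted p under 0.05, against 10.4% of genes, with 1 call each by DESeq2 and limma-voom. Dusp1, a phosphatase of MAP kinases, and Fosb, an AP-1 subunit, were lowest in Irf4-/- injected, at 264 and 72 counts against 619 and 307 in Irf4-/- control. With injection 0 of the 15 passed by edgeR, DESeq2 or limma-voom, with 6 at an unadjusted p under 0.05, against 14.2% of genes.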

How the data were processed

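TopHat, edgeR and build mm10 are listed per the submitters' processing notes, without versions. The counting tool, annotation and strand setting were not given in the sources used here. The authors deposited read counts per gene, not normalized, and FPKM. Lengths recovered from the 2 tables were whole numbers to a tolerance of 0.01 bp. Symbols and places came from GENCODE M21 (GRCm38), which matched 34490 of 35275 identifiers, and promoter sequences from RefSeq. Groups came from the titles and the design text, where treated means injected. Genes with no symbol held 0.0871% to 0.0887% of counts.

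CPM and log2 ratios (prior count 2) used TMM in edgeR 4.0.16 on R 4.3.3, with exact (Clopper-Pearson) 95% intervals that cover counting error only. The test was edgeR's quasi-likelihood fit (two-sided) with genotype and injection as terms, restricted to genes reaching 1 CPM in 2 or more libraries. P-values were adjusted by Benjamini-Hochberg over 11998 genes and the threshold was 0.05. It has 1 residual degree of freedom and, from edgeR's pooling over genes, 9.62 prior degrees of freedom. The spread used for a gene such as Lta therefore rests mostly on that of all genes tested. It measures departure from additivity, not variation between animals, and may be technical. Differences of response between genotypes leave no residual degree of freedom and were not tested. On simulated data for the genotype effect with 11872 genes it recovered 99 of 100 genes at 2-fold and 68 of 100 at 1.5-fold, and called 5 of 11672 genes that had no change. The changed genes there averaged at least 5 CPM, above Lta, Fas and Tnfrsf4 at 4.01, 4.40 and 4.58 CPM. All genes had a single dispersion close to that fitted here, with no variation between animals. The simulation therefore does not show how often genes as low as these are recovered. Members, lists, tests and the naming rule were chosen with earlier results of these data known. The rule names the members, Irf4, list genes past the additive test, up to 4 more per list past the size rule and the 3 most abundant other ligands and receptors; the marker genes, Gm16008 and the partners and pathway genes without a call were added after their values were seen. Alternatives were other scalings, filters, folds, prior counts, log2 of FPKM + 0.1, DESeq2 1.42.0, limma 3.58.1 and leaving out each library. With a library left out, genotype or injection was the only term. The other factor was then not adjusted for.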

Additional observations from a re-analysis of the deposited data

Results flagged for a closer look

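The injection ratio of Tnf was negative in WT mice (log2 -0.46, -0.90 to -0.04) and positive in Irf4-/- mice (0.57, 0.25 to 0.92), a difference of 1.03, as large in size as in 4.09% of 11870 genes. Tnfrsf9 likewise went from -0.33 to 0.34, a difference of 0.68, as large as in 10.6% of genes. Opposite signs with both counting intervals clear of 0 drew attention to these 2 members; a value lower with injection in WT and higher in Irf4-/- in this way was found in 3.37% of genes. With 1 library per group the difference was not tested.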

How the results depend on the processing

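For single members, 240 of 240 alternative values of the pairwise ratios stayed within the counting interval of the reported value. These alternatives reuse the same counts with another scaling or prior count, or FPKM, so little movement was possible. Of the alternative values of the additive estimates, 248 kept their side of the threshold. Lta no longer passed by DESeq2 (adjusted p 0.214) or by edgeR's quasi-likelihood test with injection left out as a term (0.263). Tnf passed with no filter (adjusted p 0.00632, edgeR quasi-likelihood test). The other moves, in Lta, Tnf and Fasl, came from fits without 1 library. Those fits had genotype or injection as the only term and a group down to 1 library, so their calls are not given. The number of members past the genotype test, 1 as reported, was 2 with no filter, 0 by DESeq2 and 0 with the other term left out. The cause was not tested. No called member reversed.

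Over all genes, the 177 genotype calls became 482 with no filter, 5 with the other term left out and 0 to 1004 without 1 library (1004 without WT control, 9 without Irf4-/- control, 0 without Irf4-/- injected). The 87 injection calls became 213 with upper-quartile and 267 with total count scaling, 604 with no filter, 161 at 5 CPM, 235 at an adjusted p under 0.1, 0 with the other term left out and 0 to 698 without 1 library (0 without WT control, 14 without WT injected, 1 without Irf4-/- control, 698 without Irf4-/- injected).

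The size rule gave 174 genes in the injected genotype pair, 77 in the control genotype pair, 182 in the WT injection pair and 34 in the Irf4-/- injection pair. In that order the counts were 447, 218, 542 and 196 at a minimum of 1 CPM, 66, 20, 62 and 10 at 20 CPM, 683, 244, 811 and 258 at 1.5-fold, and 58, 26, 29 and 6 at 3-fold. Members past the rule in the injected genotype pair numbered 1 as reported, 2 at 1 CPM (Tnf and Lta), 0 at 20 CPM, 2 at 1.5-fold (Tnf and Tnfrsf4) and 0 at 3-fold. At 1 CPM Lta was the 1 member in the control genotype pair, and at 1.5-fold Tnfrsf4 was the 1 in the WT injection pair.

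No paired analysis was possible because each group has 1 library and the labels carry no replicate numbers. Depth limits Lta, Fas and Tnfrsf4, at 41 to 129 counts, most.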
